A study of Takifugu obscurus and Periophthalmus magnuspinnatus and Gallus gallus with 6 samples.

Results

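The cells described here are fugu spinal cord neurons that carried transcripts of the vesicular glutamate transporter VGLUT2, which the fugu annotation lists as 2 genes, slc17a6b and SLC17A6. They were chosen by their counts: a kept barcode (a droplet with more than 3000 UMIs, that is, counted transcript molecules) was taken when it held at least 2 UMIs over slc17a6b and SLC17A6 and no UMI of gad1b, an enzyme of GABA synthesis, or of scrt2, a zinc finger factor of young neurons. This gave 152 cells (75 in library 1 and 77 in library 2) of 5182 kept fugu barcodes (2610 and 2572). These 152 are called slc17a6 cells below. The whole series of fugu, mudskipper and chicken held 29113 barcodes above the authors' UMI minimum of each library. That minimum was 3000 for fugu, 1600 and 1700 for mudskipper and 5000 and 5500 for chicken.

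The fugu, labelled Takifugu obscurus and described in the study's methods as a cross of T. obscurus and T. rubripes, were untreated juveniles of about 1 month after hatching, and no group carried a mutation or received an agent. Each library pooled the rostral cord, at the level of the pectoral fin, of several animals, which was dissociated with pronase and sorted for live cells by propidium iodide before 10x Genomics 3' sequencing. The slc17a6 cells were set against 4 other groups of barcodes from the same libraries: 168 slc17a6 cells with scrt2 (83 and 85), 103 gad1b cells (50 and 53; at least 2 UMIs of gad1b and none of the other 3 genes), 66 scrt2 cells (42 and 24; likewise for scrt2) and 4133 barcodes lacking all 4 transcripts (2072 and 2061). The study compared oligodendrocyte differentiation between species, and its labels state no question about neurons.

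VGLUT2 loads glutamate into synaptic vesicles, and in the vertebrate spinal cord it marks most excitatory interneurons, in the dorsal horn as well as in ventral motor circuits. The dorsal ones include neurons defined by the homeodomain factors LMX1B and TLX, which relay and shape touch, itch and pain signals, while GABA and glycine neurons of the same region carry PAX2, LHX1 and GBX1. Many fish genes have a second copy kept from the genome duplication of teleosts, so a family may appear under several symbols, and symbols in capitals here are those the annotation gives to some of these copies.

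The values that chose the cells are a description and were not tested. Both transporter genes were found in 65 of 75 and 64 of 77 slc17a6 cells of libraries 1 and 2, slc17a6b alone in 3 and 10, and SLC17A6 alone in 7 and 3. The median sum over the pair was 15 UMIs in library 1 (range 2 to 65) and 12 UMIs in library 2 (range 2 to 56). Summed over the cells, slc17a6b reached 1469 and 1325 counts per 1000000 UMIs (CPM, a gene's UMIs relative to all UMIs summed over the cells) and SLC17A6 1256 and 1026 CPM. Most cells stood well above the minimum, since 50 of 75 and 51 of 77 had at least 10 UMIs, while 9 and 4 had exactly 2.

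**Figure D1:**
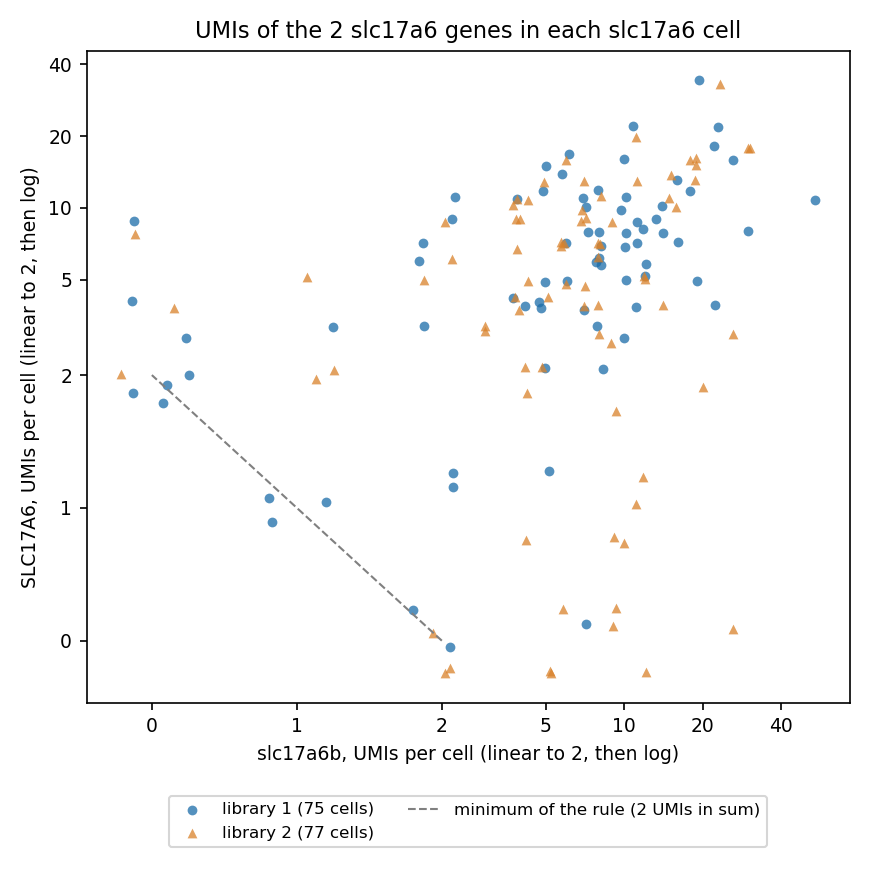
UMIs of slc17a6b (horizontal axis) and SLC17A6 (vertical axis) in each of the 75 slc17a6 cells of library 1 (circles) and 77 of library 2 (triangles), with both axes linear to 2 and logarithmic above, points moved slightly at random so that they do not cover each other, and the dashed line at the minimum of 2 UMIs in sum. Both genes were counted in 65 and 64 cells, and the cells on either axis, with 1 gene alone, mostly have few UMIs.

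Cells near the minimum are described here by the transcripts they carried, without a test. Among slc17a6 cells with 2 to 4 UMIs of the pair, snap25a, a vesicle fusion gene of neurons, was found in 11 of 14 and 6 of 7, against 50 of 50 and 50 of 51 among those with at least 10. The peptide gene adcyap1b was found in 7 of 14 and 2 of 7 near the minimum, against 47 of 50 and 47 of 51. The factor lmx1bb was found in 8 of 14 and 3 of 7, against 28 of 50 and 32 of 51, and ebf3a in 7 of 14 and 5 of 7, against 35 of 50 and 40 of 51. Just outside it lay 73 and 92 barcodes with exactly 1 UMI of the pair and no gad1b or scrt2, of which 26.0% and 28.3% had snap25a, 9.59% and 7.61% had adcyap1b, and 94.5% and 89.1% had the myelin gene plp1b. In barcodes of at most 100 UMIs, which hold mostly free RNA, slc17a6b stood at 129 and 117 CPM and plp1b at 10800 and 10470 CPM.

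The cells made up 2.87% of kept barcodes in library 1 (95% exact binomial interval 2.27% to 3.59%) and 2.99% in library 2 (2.37% to 3.73%), a mean of 2.93% ± 0.0849 (SD, n = 2 libraries). They had a median of 5020 and 5611 UMIs and 2296 and 2244 genes, close to the 5235 and 5289 UMIs of gad1b cells and 5397 and 5424 UMIs of barcodes lacking the 4 transcripts. The fugu libraries held 25763932 and 25721131 UMIs in all and shared no kept barcode, and none of the slc17a6 cells was among the 54 and 53 barcodes with the highest Scrublet doublet scores. Summed counts of the slc17a6 cells differed between the libraries by more than counting noise, with a chi-square of 3.42 per degree of freedom. A median of 0.0598% and 0.0772% of their UMIs came from oligodendrocyte markers, against 10.7% and 9.71% in barcodes lacking the transcripts. However, 7 cells in each library exceeded 1%, up to 11.7% and 15.4%, and these 14 cells held 96.6% of the plp1b UMIs of the group in library 1 and 96.7% in library 2.

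The label of a neuron was checked against pan-neuronal genes, which stood far above barcodes lacking the 4 transcripts. All tests below were edgeR quasi-likelihood tests on UMIs summed per library and cell group, with p-values adjusted over all 8374 genes tested, and a call means an adjusted p under 0.05. The 4 genes of the rule were left out of all tests. Against barcodes lacking the transcripts, mostly glia, 27.0% of all genes tested were called higher in slc17a6 cells (2260 genes) and 28.8% lower (2415 genes). Of 18 tested pan-neuronal genes, 16 were higher and none lower, with a median log2 fold change of 3.68, against -0.17 over all genes. The last value moved to -0.03 with another scaling of the libraries (RLE), so differences near that size depend on the scaling.

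Of the pan-neuronal genes, snap25a and map1b were found in nearly every slc17a6 cell. The fusion gene snap25a stood at 2808 and 2282 CPM in slc17a6 cells, against 96.8 and 85.9 CPM in barcodes lacking the transcripts, and was found in 96.0% and 94.8% of cells, against 28.8% and 26.3%. It was higher by 4.28 on the log2 scale (SE 0.225, adjusted p = 2.09e-07). The microtubule protein gene map1b was found in 97.3% and 97.4% of slc17a6 cells and reached 1951 and 2126 CPM, against 255 and 198.5 CPM. By the same test, sncb, which encodes the presynaptic protein beta-synuclein, was higher by 4.34 (SE 0.222, adjusted p = 2.01e-07), and it was found in 80.0% and 67.5% of slc17a6 cells. For all 3 genes both libraries of slc17a6 cells lay above both libraries of the other barcodes.

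Transcripts of the rule's kind were otherwise few. The remaining glutamate transporter genes were rare: slc17a7a was not counted in any of the 152 slc17a6 cells, which allows a share of up to 1.97%, SLC17A7 was found in 4.0% and 3.90% of them and slc17a8 in 1.33% and 1.30%. Of the 4 genes of glutamate supply that could be tested, 2 were higher than in barcodes lacking the transcripts, as were 27.0% of all genes tested. The others, glud1b and got1, were not called (log2 fold change -0.17 and 0.26, adjusted p = 0.5365 and 0.3446). The higher ones were glsa, encoding the glutaminase that makes glutamate from glutamine, at 199.5 and 182 CPM against 15.4 and 22.4 CPM (log2 fold change 2.82, adjusted p = 3.54e-06), and slc25a22a, a mitochondrial glutamate carrier, at 40.8 and 40.5 CPM against 1.18 and 1.90 CPM (4.18, adjusted p = 3.33e-05). Neither glsa nor slc25a22a was called between slc17a6 and gad1b cells, where glsa stood at 199.5 and 182 CPM against 198 and 185.5 CPM.

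The comparison with gad1b cells set excitatory against inhibitory neurons of the same libraries. The gad1b cells were chosen to hold gad1b and to lack the transporter pair. The direction of excitatory and inhibitory genes was therefore in part fixed by the choice of cells. Only 1.87% of all genes tested were called higher in slc17a6 cells (157 genes) and 1.47% lower (123 genes), while the median log2 fold change over all genes was -0.00. Of 18 pan-neuronal genes, 1 was called higher and none lower. All cell groups of a library came from the same pool of animals, and the p-values measure the spread between the 2 pools. Of the 60 genes of the lists or of the ranking that were called here, the markers adcyap1b and ebf3a left out, 35 lost their calls when at least 1 sum was left out and 37 without the low-count filter (adjusted p up to 0.304). Among barcodes over 4500 UMIs 20 of 59 lost them, and after thinning each cell to 3000 UMIs 14 of 57. The genes lmx1bb, tlx2, MAF (ENSTRUG00000011245), bdnf, SYT9, ccka, NPY, zic1, pax2b, gbx1, lhx1a, skor1a, foxp1b, GAD1, nppc, penka, grik3 and CACNA2D3 kept their calls under every alternative that gave them a value. Of those described below as called without a further remark, pax2a, prkg2, pnocb and sst1.1 lost theirs without the filter (adjusted p from 0.0524 to 0.0895), pnocb and sst1.1 also over 4500 UMIs (adjusted p = 0.0654 and 0.0631), and sall3a with a minimum of 1 transporter UMI (adjusted p = 0.845). For genes given below with a lost call, not every setting that lost it is named. Calls given below for rtn4rl2a, cpne8, adcy1b, adcyap1r1a, cbln1 and cbln2b against gad1b cells were not recomputed under the alternatives.

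**Figure D2:**
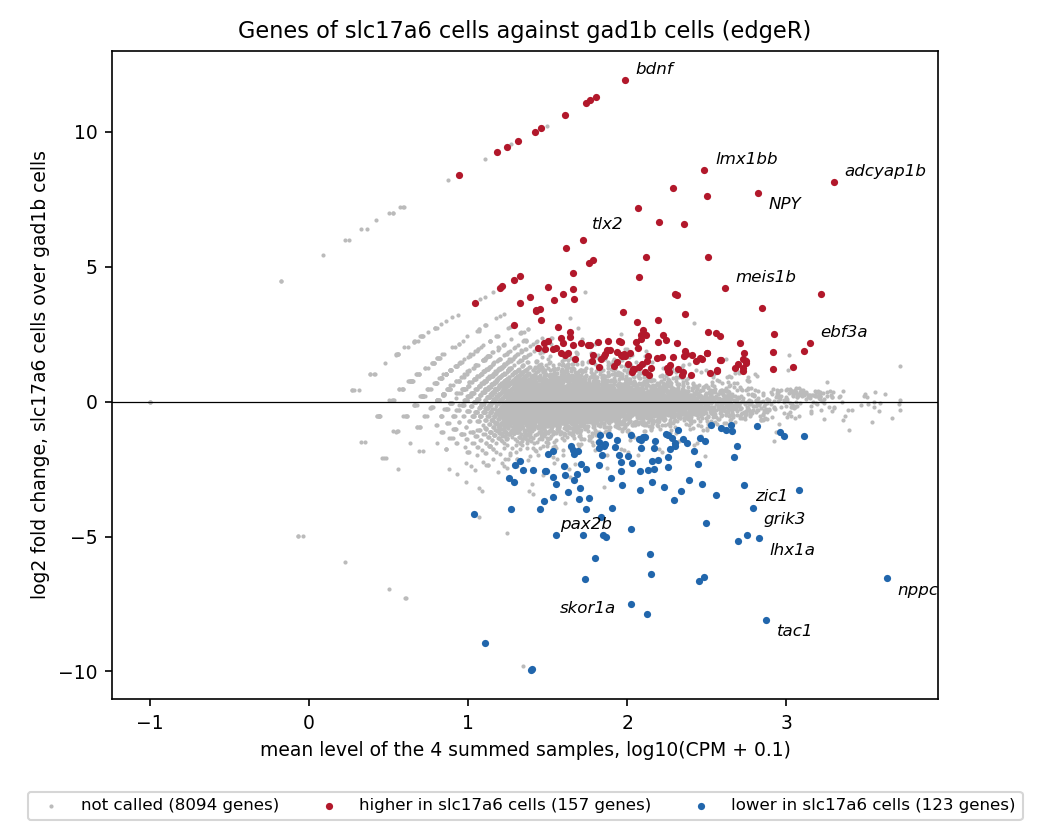
Log2 fold change of slc17a6 cells over gad1b cells (vertical axis) against the mean level of the 4 summed samples (horizontal axis, log10 of CPM plus 0.1) for each of the 8374 genes tested, with 157 genes called higher in red and 123 called lower in blue (the labelled markers adcyap1b and ebf3a among them are a description). The upper and lower diagonal rows are genes without a UMI in 1 of the groups, whose fitted fold changes are not bounds.

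Among 18 tested factors of dorsal excitatory neurons, 6 were called higher in slc17a6 cells than in gad1b cells and 2 lower, with a median log2 fold change of 1.47. The LIM homeodomain gene lmx1bb, which in mice and zebrafish marks dorsal excitatory neurons, stood at 628 and 595 CPM in slc17a6 cells, against 0 and 3.04 CPM in gad1b cells. It was found in 58.7% and 67.5% of slc17a6 cells, against 0 of 50 and 1 of 53 gad1b cells (adjusted p = 5.78e-06 for the summed counts). With 571 UMIs against 1, the ratio was 386 (counting interval 69.0 to 15270). The homeobox gene tlx2, whose family selects the glutamate over the GABA fate in the mouse dorsal horn, stood at 197 and 265 CPM against 0 and 3.04 CPM, a ratio of 147 (26.2 to 5847, adjusted p = 0.00127).

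Other factors called higher were found in fewer cells. A MAF gene (ENSTRUG00000011245), of a family active in dorsal horn and touch neurons of mice, stood at 92.9 and 68.8 CPM against no UMI in gad1b cells, at least 17.0-fold higher against a floor of 3 counts over the group (adjusted p = 0.00305). The nuclear factor gene NFIB stood at 159 and 119 CPM against 59.3 and 27.4 CPM (log2 fold change 1.72, SE 0.333, adjusted p = 0.0175), and this call was lost without gad1b library 2 or without slc17a6 library 1 (adjusted p up to 0.148). The homeobox gene phox2bb, known from autonomic and hindbrain neurons, stood at 116 and 91.0 CPM against 3.29 and 0 CPM (adjusted p = 0.0367), but lost its call when any 1 of the 4 sums was left out (adjusted p up to 0.246).

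Going the other way in the same list were zic1 and zic2a, zinc finger factors of the dorsal neural tube. The first, zic1, stood at 129 and 99.1 CPM in slc17a6 cells against 985 and 970 CPM in gad1b cells (-3.08 on the log2 scale, SE 0.221, adjusted p = 6.49e-05). Counts of zic2a stood at 9.07 and 8.09 CPM against 155 and 57.8 CPM, lower by 3.58 on the log2 scale (adjusted p = 0.0371), a call lost without gad1b library 1 or without either slc17a6 library (adjusted p up to 0.293). Further genes of the list, drgx and lmx1al, were called higher against barcodes lacking the transcripts but not against gad1b cells. The second, lmx1al, was found in 21.3% and 18.2% of slc17a6 cells and had no UMI in gad1b cells (adjusted p = 0.0575).

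Of 11 tested factors of inhibitory neurons, 5 were lower in slc17a6 cells than in gad1b cells and none was higher, with a median log2 fold change of -2.19. The choice of cells by gad1b in part fixed this direction. The paired box gene pax2b stood at 4.53 and 10.1 CPM in slc17a6 cells against 221 and 188.5 CPM in gad1b cells (log2 fold change -4.74, SE 0.427, adjusted p = 0.000219). Its relative pax2a, with 2 UMIs against 78, was 57.7-fold lower (counting interval 15.4 to 485, adjusted p = 0.00243). For gbx1, a homeobox gene of dorsal inhibitory neurons, 3 UMIs against 177 gave an 87.3-fold difference (29.4 to 427, adjusted p = 0.000648). Also lower were sall3a at 54.4 and 48.5 CPM against 194 and 280 CPM (-2.19, adjusted p = 0.00192) and pax8 at 9.07 and 0 CPM against 145 and 140 CPM (-5.01, adjusted p = 0.0135), which lost its call without either gad1b library or without slc17a6 library 2 (adjusted p up to 0.109). In contrast, lbx1b, a factor of several dorsal classes, did not pass the test, at 129 and 154 CPM against 148 and 94.3 CPM.

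Further factor genes were named by their rank against gad1b cells. The corepressor gene skor1a, active in dorsal spinal neurons of mice, had 1 UMI in slc17a6 cells against 131 in gad1b cells, 194-fold lower (34.2 to 7712, adjusted p = 0.000272), and its copy skor1b had none against 16, at least 7.94-fold lower (adjusted p = 0.0225), although the second call was lost when any 1 sum was left out (adjusted p up to 0.113). The forkhead gene foxp1b had 1 UMI against 69, 102.1-fold lower (17.7 to 4089, adjusted p = 0.00145). The LIM homeodomain gene lhx1a was found in 9.33% and 11.7% of slc17a6 cells, against 76.0% and 86.8% of gad1b cells. It stood at 36.3 and 40.5 CPM against 1044 and 1578 CPM (log2 fold change -5.07, SE 0.484, adjusted p = 0.000272).

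Of 10 tested factors in a list of ventral excitatory and motor neurons, ebf3a left out, 2 were higher in slc17a6 cells than in gad1b cells and 1, lhx1a, was lower. Both belong to the EBF family, helix-loop-helix factors of differentiating neurons that are not confined to the ventral cord. Their relative ebf3a was named as a marker of these cells from earlier results of the same data and is given without a test: it stood at 2443 and 2155 CPM in slc17a6 cells, 626 and 426 CPM in gad1b cells and 16.2 and 12.8 CPM in barcodes lacking the transcripts. Of the EBF1 genes, ENSTRUG00000009320 stood at 417 and 378 CPM against 135 and 152 CPM in gad1b cells (log2 fold change 1.49, adjusted p = 0.0197), and ENSTRUG00000013805 at 97.5 and 140 CPM against 0 and 6.08 CPM (ratio 37.9, counting interval 10.2 to 316, adjusted p = 0.0096). Both calls were lost on leaving out single sums (adjusted p up to 0.137 and 0.0991).

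Defining genes of ventral excitatory and motor classes were rare. Of the 34 genes of that list, 16 had no UMI in the slc17a6 cells, among them evx1 and evx2 of commissural V0 neurons, vsx1 of V2a neurons and mnx1 of motor neurons. A transcript of chata, slc18a3a, slc18a3b, mnx1 or mnx2b, genes of acetylcholine neurons, was found in 0 of 75 and 1 of 77 slc17a6 cells. Of other genes for acetylcholine, CHAT was found in 0% and 1.30% of the cells and slc5a7a in 0% and 2.60%. Factors of dorsal commissural neurons, the barhl genes and lhx2a, lhx2b and lhx9, were found in 4 of 75 and 3 of 77.

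HOX genes place a cell along the length of the cord, with genes of higher paralogue number used further back. Of 32 HOX genes in the list, 14 had no UMI in slc17a6 cells, among them every listed gene of paralogue groups 10, 12 and 13. Of 14 tested, 12 were higher than in barcodes lacking the transcripts and none was lower. Over all genes tested, 27.0% were higher and 28.8% lower in that comparison, and 1.87% and 1.47% against gad1b cells. Against gad1b cells 2 were higher, hoxb5b at 1745 and 2282 CPM against 576.5 and 550.4 CPM (log2 fold change 1.87, SE 0.286, adjusted p = 0.00517) and hoxb6b at 308 and 787 CPM against 155 and 36.5 CPM (2.58, SE 0.592, adjusted p = 0.0388). The hoxb5b call was lost without either gad1b library (adjusted p up to 0.0687), and the hoxb6b call without gad1b library 2 or slc17a6 library 2 (adjusted p up to 0.272).

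Several genes of GABA and glycine transmission differed between the groups in the direction of the rule, which was in part fixed by the choice of cells. Of 7 tested genes of these and other transmitters, 4 were lower in slc17a6 cells than in gad1b cells and 1 was higher. The GABA transporter gene slc6a1a, among the lower ones, was found in 82.7% and 68.8% of slc17a6 cells. It was higher than in barcodes lacking the transcripts (log2 fold change 1.505, adjusted p = 0.000108). Its call against gad1b cells was lost without the low-count filter (adjusted p = 0.0567). The second GAD1 gene of the annotation, which the rule did not use, stood at 6.80 and 4.05 CPM in slc17a6 cells against 310 and 240 CPM in gad1b cells (log2 fold change -5.64, SE 0.702, adjusted p = 0.00145). With 2 UMIs against 43, the glycine transporter gene slc6a5 was 31.8-fold lower (counting interval 8.29 to 271, adjusted p = 0.00608), a call lost without gad1b library 1 or slc17a6 library 2 (adjusted p up to 0.062). The gene gad2, found in 1.33% and 2.60% of slc17a6 cells, was not called against gad1b cells (adjusted p = 0.0706). Against barcodes lacking the transcripts it was higher (log2 fold change 3.20, adjusted p = 0.00598). Its level in slc17a6 cells was 40.8 CPM in library 1, all from 1 of 75 cells, and 6.07 CPM in library 2. Whether this gad2 call holds without that cell was not tested. The vesicular GABA transporter gene SLC32A1 had no UMI in any group, gad1b cells included, and so does not tell them apart. The gene of this list called higher was slc18a2, the vesicular monoamine transporter, with 45 UMIs against 3 (ratio 10.1, counting interval 3.26 to 51.0, adjusted p = 0.0335), and its call was lost without slc17a6 library 1 or either gad1b library (adjusted p up to 0.213).

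Neuropeptide genes differed in both directions, with 2 of 15 tested genes of the list, adcyap1b left out, higher in slc17a6 cells than in gad1b cells and 5 lower. The gene adcyap1b, which encodes the peptide PACAP, was a marker named from earlier results and is described without a test. It stood at 3928 and 4012 CPM in slc17a6 cells, against 6.59 and 21.3 CPM in gad1b cells, 15 and 12.6 CPM in scrt2 cells and 13.7 and 21.6 CPM in barcodes lacking the transcripts, so every other group apart from slc17a6 cells with scrt2 lay far below. It was found in 80.0% (exact interval 69.2% to 88.3%) and 87.0% (77.4% to 93.6%) of slc17a6 cells, against 4.39% and 5.92% of barcodes lacking the transcripts.

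The peptides called higher were NPY and ccka. The NPY gene, encoding neuropeptide Y, stood at 580 and 2072 CPM in slc17a6 cells against 9.88 and 3.04 CPM in gad1b cells (log2 fold change 7.74, SE 0.811, adjusted p = 0.00044). It was found in 17.3% and 37.7% of slc17a6 cells, so that the libraries differed from each other. Cholecystokinin, encoded by ccka, stood at 310.5 and 467 CPM against 3.29 and 0 CPM, a ratio of 249 with 368 UMIs against 1 (44.4 to 9852, adjusted p = 0.000489).

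Several peptide genes stood lower in slc17a6 cells than in gad1b cells. The natriuretic peptide gene nppc stood at 97.5 and 80.9 CPM in slc17a6 cells against 9774 and 7189 CPM in gad1b cells (log2 fold change -6.55, SE 0.676, adjusted p = 0.000412). It was found in 18.7% and 14.3% of slc17a6 cells, and in barcodes lacking the transcripts it stood at 232 and 304.5 CPM. This gene was not in the peptide list and was named by its rank. Within the list, penka, the enkephalin precursor, stood at 34.0 and 36.4 CPM against 1693 and 520 CPM (-4.93, SE 0.620, adjusted p = 0.00148), the somatostatin gene sst1.1 at 52.1 and 4.05 CPM against 530 and 1417 CPM (-5.16, adjusted p = 0.00453) and pnocb, the nociceptin precursor, at 58.9 and 58.7 CPM against 715 and 617 CPM (-3.47, adjusted p = 0.00371). The tachykinin gene tac1 stood at 6.80 and 4.05 CPM against 1575 and 1417 CPM (-8.09, SE 1.71, adjusted p = 0.0273), although this call was lost when any 1 sum was left out (adjusted p up to 0.213). The last, NXPH4, a neurexin ligand, stood at 13.6 and 4.05 CPM against 59.3 and 45.6 CPM, and its call (adjusted p = 0.0291) was lost without either gad1b library or slc17a6 library 2 (adjusted p up to 0.206).

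Secreted factors with roles at synapses were among the genes ranked highest. The neurotrophin gene bdnf stood at 165.5 and 225 CPM in slc17a6 cells and had no UMI in gad1b cells, at least 41.1-fold higher (adjusted p = 0.000434). It was found in 42.7% and 64.9% of slc17a6 cells, against 0 of 103 gad1b cells, which allows a share of up to 2.91%. The cerebellin gene cbln4, a synapse organizer, stood at 63.5 and 170 CPM against no UMI, at least 24.6-fold higher (adjusted p = 0.0096). This call was lost without either gad1b library (adjusted p up to 0.0825) and without the low-count filter (adjusted p = 0.119). The receptor of PACAP, adcyap1r1a, was picked after its values were seen: it stood at 125 and 89.0 CPM against 280 and 271 CPM in gad1b cells, lower by 1.35 on the log2 scale (SE 0.257, adjusted p = 0.016).

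Further genes named by rank and without any UMI in gad1b cells were SYT9, prkg2, epha6, nrn1a and KIF19. The synaptotagmin gene SYT9, a calcium sensor of secretion, was at least 23.3-fold higher at 116 and 105 CPM (adjusted p = 0.00139), and the cGMP-dependent kinase gene prkg2 at least 12.1-fold higher at 52.1 and 62.7 CPM (adjusted p = 0.00524). The axon guidance receptor gene epha6, the neuritin gene nrn1a and the kinesin gene KIF19 were at least 8.60-fold, 7.42-fold and 6.42-fold higher. All 3 lost their calls without either gad1b library and without slc17a6 library 2 (adjusted p up to 0.163, 0.148 and 0.145), and nrn1a also without slc17a6 library 1. In this fit SYT9, prkg2, epha6 and nrn1a reached the 10% minimum for testing only in slc17a6 cells. Without the low-count filter prkg2, epha6, nrn1a and KIF19 lost their calls (adjusted p = 0.0567, 0.182, 0.169 and 0.128), and SYT9 kept its call. On the other side, the collagen-modifying enzyme gene plod2 had no UMI in slc17a6 cells against 32 in gad1b cells, at least 15.5-fold lower (adjusted p = 0.00791), a call lost without gad1b library 2 or slc17a6 library 2 (adjusted p up to 0.0519).

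**Figure D3:**
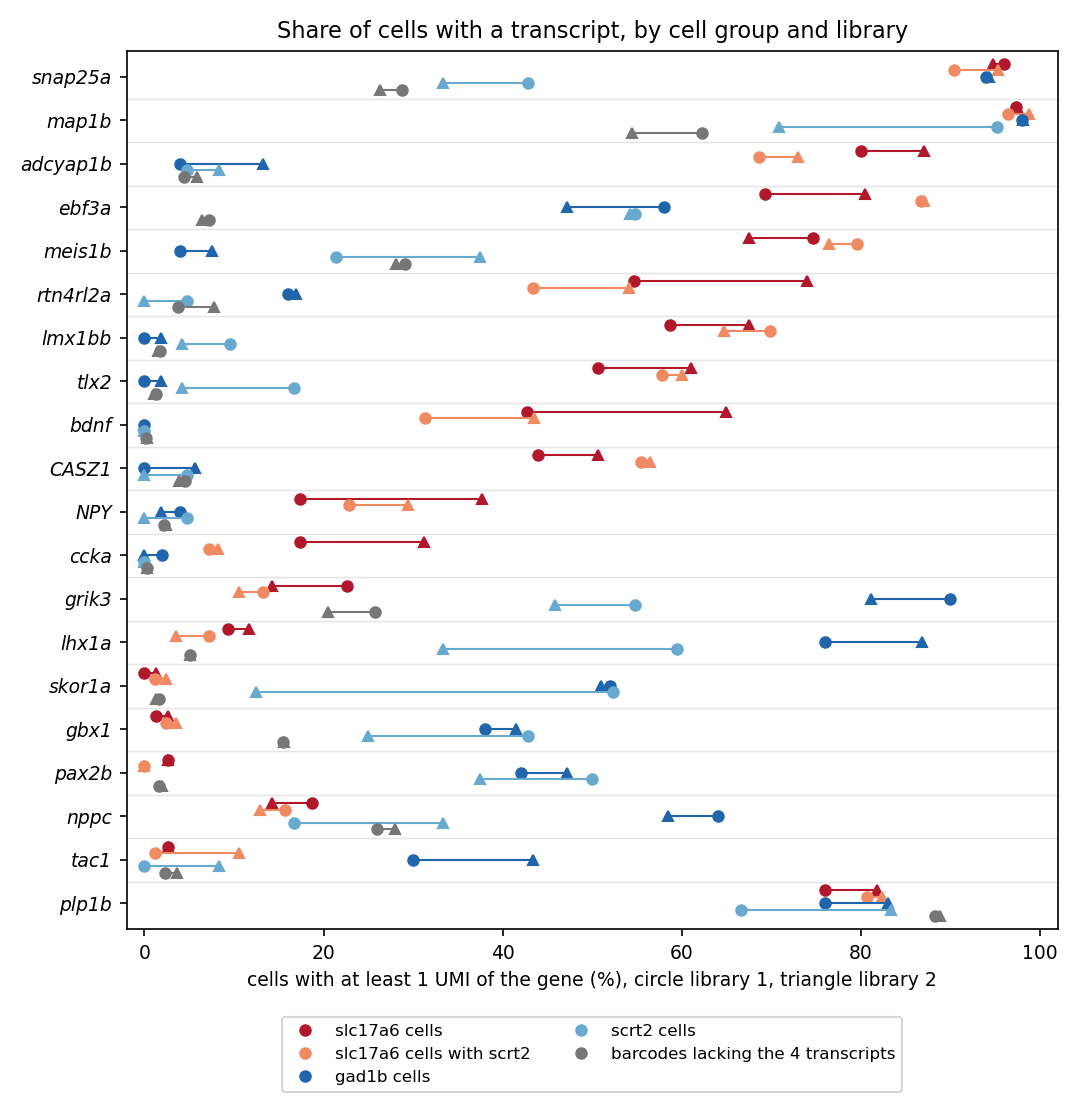
Share of cells with at least 1 UMI of each of 20 genes (horizontal axis, percent) in the 5 cell groups, in library 1 (circles) and library 2 (triangles), joined by a line. From adcyap1b to ccka the slc17a6 cells (red) lie above gad1b cells (dark blue), and from grik3 to tac1 they lie below them, while plp1b is found in 76.0% and 81.8% of slc17a6 cells, against 76.0% and 83.0% of gad1b cells.

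Genes of vesicle release stood far above barcodes lacking the transcripts, and most were not called against gad1b cells. Over all genes tested, 27.0% were higher and 28.8% lower than in the former, and 1.87% and 1.47% than in the latter. Of 35 tested genes, 33 were higher in slc17a6 cells than in barcodes lacking the transcripts and 1 was lower, whereas against gad1b cells 1 was higher and 4 were lower. The lower ones were stxbp1a (320 and 316 CPM against 609 and 566 CPM), pclob (324 and 222.5 CPM against 639 and 496 CPM), syt2a (299 and 172 CPM against 807 and 687 CPM) and SV2C (113.3 and 89.0 CPM against 310 and 292 CPM). Of these, syt2a, encoding a fast calcium sensor, differed by -1.65 on the log2 scale (SE 0.256, adjusted p = 0.00539) and kept its call without any 1 sum but lost it without the low-count filter (adjusted p = 0.0592), while the other 3 lost theirs on leaving out single sums (adjusted p up to 0.248). The higher one was SNAP25, a second copy of the fusion gene, at 109 and 115 CPM against 36.2 and 30.4 CPM (1.78, adjusted p = 0.0096), which lost its call without either gad1b library or slc17a6 library 2 (adjusted p up to 0.102).

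Of 20 tested ionotropic glutamate receptor subunits, 16 were higher in slc17a6 cells than in barcodes lacking the transcripts and 1 was lower, while 6 more were too rare to test. Against gad1b cells, grin1a, the obligatory subunit of NMDA receptors, was higher at 635 and 704 CPM against 306 and 268 CPM (log2 fold change 1.25, SE 0.194, adjusted p = 0.00536). The grin1a call was lost without gad1b library 2, over 4500 UMIs and with a minimum of 1 transporter UMI (adjusted p = 0.0584, 0.0759 and 0.172). The kainate receptor subunit grik3 was lower at 77.1 and 72.8 CPM against 1278 and 1049 CPM (-3.93, SE 0.315, adjusted p = 0.000126), and the AMPA receptor subunit gria1a at 379 and 518 CPM against 807 and 918 CPM (-0.91, adjusted p = 0.0465). The gria1a call was lost when any 1 sum was left out (adjusted p up to 0.269). Among 8 metabotropic receptors, grm3 and grm1b were lower in slc17a6 cells than in gad1b cells (-1.50 and -2.35, adjusted p = 0.0293 and 0.00689) and lost their calls on leaving out single sums (adjusted p up to 0.196 and 0.0782).

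Most receptors for GABA and glycine and most ion channels were not called against gad1b cells. Over all genes tested, 1.87% were called higher and 1.47% lower in that comparison. Of 17 receptor subunits tested, 16 were higher than in barcodes lacking the transcripts, and against gad1b cells only GABRA2 was called, at 265 and 198 CPM in slc17a6 cells against 85.6 and 66.9 CPM (log2 fold change 1.63, SE 0.260, adjusted p = 0.0064). Its call was lost without gad1b library 2, over 4500 UMIs and with a minimum of 1 transporter UMI (adjusted p = 0.0825, 0.202 and 0.0522). Of 29 potassium channel genes, 27 were higher than in barcodes lacking the transcripts and none was called against gad1b cells by edgeR, while 9 had an unadjusted p under 0.05 and DESeq2 called 1. Of 25 sodium and calcium channel genes, 22 were higher and 1 lower than in barcodes lacking the transcripts. Against gad1b cells CACNA1B, the pore of N-type calcium channels, was higher at 240 and 257 CPM against 109 and 125 CPM (1.11, adjusted p = 0.0275), a call lost when any 1 sum was left out (adjusted p up to 0.182). The auxiliary subunit CACNA2D3 was lower at 106.5 and 85.0 CPM against 336 and 277 CPM (-1.66, SE 0.222, adjusted p = 0.00214). Its copy cacna2d3 had no UMI in slc17a6 cells against 31 in gad1b cells, at least 15.6-fold lower (adjusted p = 0.011), and that call was lost without gad1b library 1 or either slc17a6 library (adjusted p up to 0.0712).

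**Figure D4:**
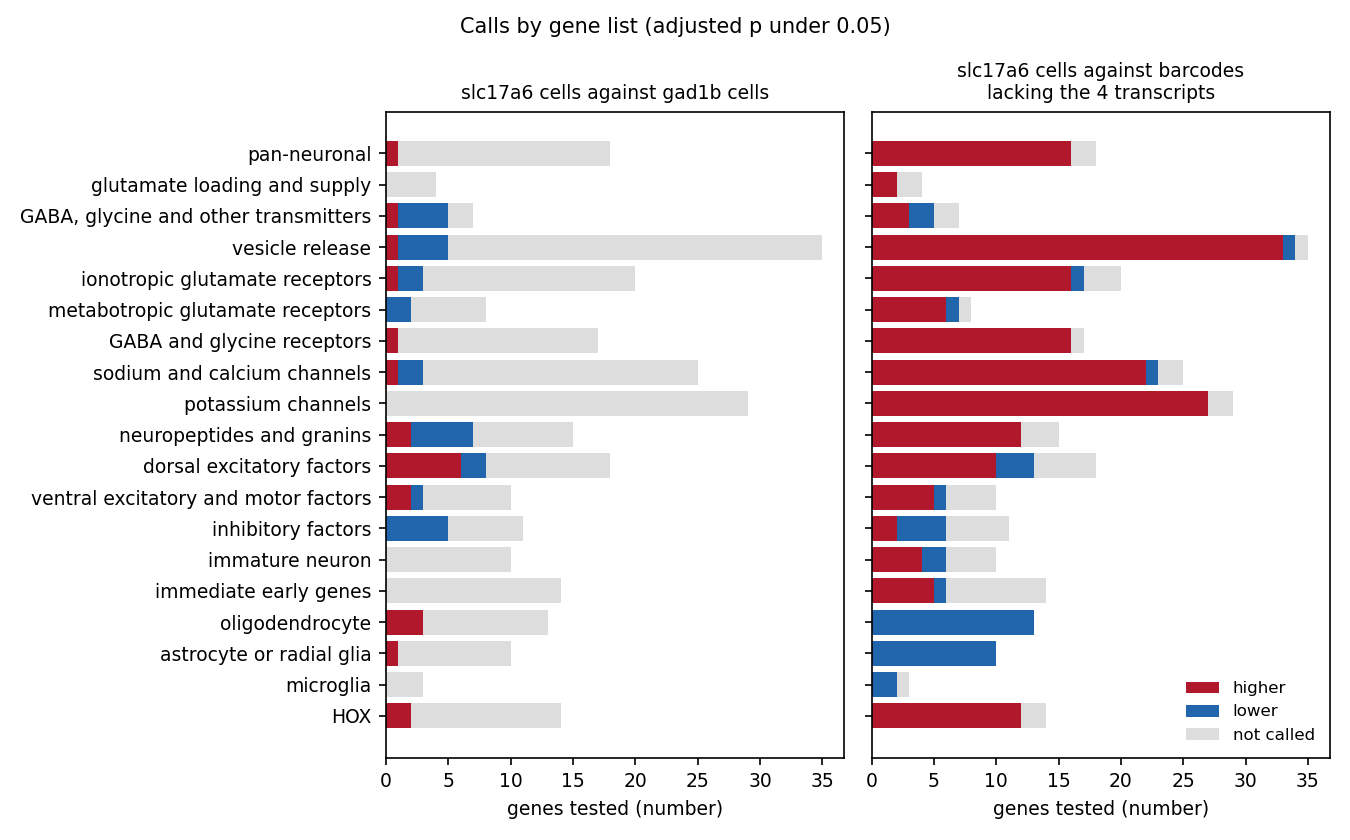
Genes tested in each list of at least 3 tested genes (bar length, number of genes), called higher (red), lower (blue) or not called (grey) in slc17a6 cells against gad1b cells (left) and against barcodes lacking the 4 transcripts (right), with adcyap1b and ebf3a left out. Of 35 vesicle release genes, 33 were higher on the right and 1 on the left, and of 13 oligodendrocyte genes all were lower on the right.

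Against barcodes lacking the transcripts, the highest-ranked genes partly repeated those above: bdnf, ccka, NPY, cbln4 and lmx1bb were among the 12, as was the marker adcyap1b, whose rank is a description. The others included rtn4rl2a, encoding a Nogo receptor relative on axons, at 2280 and 3935 CPM in slc17a6 cells against 6.67 and 14.2 CPM (log2 fold change 7.71, SE 0.54, adjusted p = 9.11e-07). It was also higher than in gad1b cells, at 280 and 128 CPM (3.98, adjusted p = 0.00111), a call not recomputed under the alternatives. The ankyrin repeat gene ankrd34c stood at 79.3 and 119 CPM against 0.235 and 0.237 CPM (8.01, SE 0.432, adjusted p = 3.97e-07). The cannabinoid receptor gene cnr1, known from presynaptic terminals, had 29 UMIs against 2 in the 4133 other barcodes, a ratio of 394 (counting interval 99.6 to 3406, adjusted p = 2.48e-06). The remaining 3 of the 12 were the potassium channel gene kcnh4b (ratio 475, 122 to 4079), tmem235b (7.62, SE 0.715) and C14orf132 (ratio 353, 112 to 1786). Against gad1b cells, ankrd34c, cnr1, kcnh4b, tmem235b and C14orf132 were not called (adjusted p from 0.0723 to 0.404). There ankrd34c stood at 39.5 and 63.9 CPM.

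The genes ranked lowest included a water channel and a globin. The water channel gene aqp1a.1 stood at 9.07 and 30.4 CPM in slc17a6 cells against 331 and 363 CPM (log2 fold change -4.61, SE 0.397, adjusted p = 3.58e-06), and crabp1b, a retinoic acid binding protein gene, at 2.27 and 6.07 CPM against 103 and 63.7 CPM (-4.78, adjusted p = 0.000156). The globin gene hbbe2 stood at 92.9 and 93.1 CPM against 4368 and 2066 CPM (-5.62, SE 0.423, adjusted p = 1.43e-06). Its transcripts were found in 33.3% and 32.5% of slc17a6 cells, against 33.0% and 23.8% of the other barcodes. With 1 UMI each, irf1b, ahnak and si:ch211-93g23.2 were 46.8-fold (8.38 to 1848), 32.0-fold (5.73 to 1265) and 30.2-fold (5.40 to 1194) lower, and atp1b4 and pax3a, with 2 UMIs each, were 24.3-fold (6.71 to 201) and 17.1-fold (4.73 to 142) lower. With a minimum of 1 transporter UMI, si:ch211-93g23.2 and atp1b4 lost their calls (adjusted p = 0.0604 and 0.277).

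Against scrt2 cells, which hold young neurons, 13.7% of all genes tested were called higher in slc17a6 cells (1151 genes) and 10.1% lower (849 genes). Of 10 tested genes of immature neurons, 7 were lower in slc17a6 cells and none higher, with a median log2 fold change of -3.11, against 0.13 over all genes. The scrt2 cells were chosen to hold scrt2 and the slc17a6 cells to lack it. This direction was therefore in part fixed by the choice of cells. The gene HES6, of a family of repressors in the Notch pathway, stood at 95.2 and 40.5 CPM in slc17a6 cells against 758 and 786.5 CPM in scrt2 cells (-3.76, adjusted p = 5.97e-05), and sox11a, a factor of newborn neurons, at 72.5 and 30.4 CPM against 459 and 308 CPM (-3.17, adjusted p = 0.000237). Release, receptor and channel genes went the other way, with 19 of 35 vesicle release genes, 13 of 20 ionotropic glutamate receptors and 17 of 29 potassium channel genes higher in slc17a6 cells and at most 1 lower in any of these lists.

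The genes ranked lowest against scrt2 cells had no UMI in slc17a6 cells. Among them were ptf1a and prdm13, factors of dorsal inhibitory progenitors in mice, at least 41.5-fold and 25.8-fold lower, and neurod4, a proneural gene, at least 31.0-fold lower (adjusted p = 0.00039, 0.00196 and 0.000503). The others were foxp4, skor1b and e2f5, at least 47.4-fold, 17.8-fold and 15.8-fold lower. Of 11 inhibitory factors tested, 10 were lower in slc17a6 cells, and none was higher. The scrt2 cells were chosen to lack the transporter pair, so this direction was in part fixed by the choice of cells. Of the scrt2 cells, 50.0% and 37.5% had pax2b. Genes ranked highest were ccka, cpne8, adcy1b, bdnf, GFRA1 and a second MAF gene (ENSTRUG00000018285), each without a UMI in scrt2 cells. For instance, adcy1b, a calcium-stimulated adenylyl cyclase of neurons, stood at 299 and 255 CPM and was at least 33.2-fold higher (adjusted p = 5.97e-05), and GFRA1, a receptor of glial cell line-derived neurotrophic factor, was at least 18.0-fold higher at 138 and 162 CPM. Against gad1b cells, where GFRA1 stood at 165 and 146 CPM, GFRA1 and this MAF gene were not called (adjusted p = 0.988 and 0.103). The genes ccka, cpne8, adcy1b and bdnf were called higher there too. All 12 named genes of this comparison kept their calls when any 1 sum was left out. A single scrt2 barcode of 40540 UMIs held much of the library 2 sum, and without it 1300 genes were higher and 917 lower. The scrt2 cells were shallower, with a median of 4319.5 and 4838 UMIs, and the part of depth in these counts was not tested beyond thinning every cell to 3000 UMIs, which gave 1151 genes higher and 750 lower.

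The rule set aside as many cells again because they held scrt2: of kept barcodes with at least 2 UMIs of the transporter pair, 83 of 162 and 85 of 168 had scrt2 and no gad1b. Most had little of it, with a median of 2 UMIs and exactly 1 UMI in 29 and 37 of them. Among the shallower of all slc17a6 cells without gad1b, 54.4% and 49.4% had no scrt2, against 40.5% and 45.7% among the deeper ones. This comparison was added after the data were seen. Across 8568 genes, edgeR called 0 (0.0%) higher and 0 (0.0%) lower in slc17a6 cells than in those with scrt2. At an unadjusted p under 0.05 there were 932 genes (10.9%), the lowest adjusted p was 0.0596, DESeq2 called 39 higher and 17 lower, and edgeR with the library as a block called 21 higher and 4 lower, so the groups are not shown to be alike.

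Levels of single genes in that comparison are given as values. Transcripts of adcyap1b stood at 3928 and 4012 CPM in slc17a6 cells against 1494 and 1980 CPM in those with scrt2. Counts of ccka stood at 310.5 and 467 CPM against 72.6 and 81.8 CPM (log2 fold change 2.33, SE 0.353, adjusted p = 0.0958). The factor lbx1b stood at 129 and 154 CPM against 392 and 415 CPM (-1.52, SE 0.228, adjusted p = 0.0866). The shares with lmx1bb were 58.7% and 67.5% in slc17a6 cells, against 69.9% and 64.7% in those with scrt2.

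Genes that set the slc17a6 cells most apart from gad1b cells by presence were ranked by the share of cells with a UMI, after thinning each cell to 3000 UMIs, minus the share in gad1b cells, taking the lower of the 2 libraries. The 6 highest were adcyap1b (74.7 percentage points), meis1b (51.5), lmx1bb (48.0), tlx2 (38.7), CASZ1 (38.7) and CDH22 (38.0). The TALE homeodomain gene meis1b was found after thinning in 68.0% and 57.1% of slc17a6 cells, against 2.00% and 5.66% of gad1b cells, and also in 18.6% and 18.0% of barcodes lacking the transcripts. The zinc finger gene CASZ1 was found in 38.7% and 42.9%, against 0% and 1.89% of gad1b cells. For CDH22, a cadherin of cell adhesion, the shares were 48.0% and 49.4%, against 4.0% and 11.3%. The ranking used gad1b cells alone, and the same transcripts were also frequent in slc17a6 cells with scrt2. After thinning, lmx1bb was found in 48.0% and 59.7% of slc17a6 cells, against 63.9% and 50.6% of those with scrt2, and tlx2 in 38.7% and 44.2%, against 48.2% and 43.5%. In slc17a6 cells with scrt2, meis1b was found in 62.7% and 60.0%, CASZ1 in 48.2% and 45.9% and adcyap1b in 56.6% and 62.4%.

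Within the slc17a6 cells, transcripts were found in different combinations. These pairs were chosen after the data were seen and are a description without a test. The dorsal factors lmx1bb or tlx2 were found in 58 of 75 and 62 of 77 cells, both together in 24 and 37, and adcyap1b or ebf3a in 69 of 75 and 76 of 77. Only 4 and 1 cells had none of these 4 genes. Of cells with adcyap1b, 30 of 60 and 47 of 67 had bdnf, against 2 of 15 and 3 of 10 of those without adcyap1b.

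A small set of cells with phox2bb stood apart in several genes. It comprised 13 and 8 cells, of which 2 of 13 and 1 of 8 had ebf3a, against 50 of 62 and 61 of 69 of the other slc17a6 cells. The monoamine transporter slc18a2 was found in 5 of 13 and 7 of 8, against 6 of 62 and 4 of 69. The hoxb5b gene was found in 9 of 13 and 8 of 8, against 19 of 62 and 19 of 69. All of them, 13 of 13 and 8 of 8, had adcyap1b. Their depth was greater, with a median of 7616 and 6491 UMIs, against 4823 and 5508 UMIs in the other slc17a6 cells, and the part of depth in these shares was not tested.

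Cells with the MAF gene ENSTRUG00000011245 and cells with NPY made further groupings. Of the 14 and 12 cells with MAF, 7 and 5 had adcyap1b, against 53 of 61 and 62 of 65 of the others, and 12 of 14 and 12 of 12 had CASZ1, against 21 of 61 and 27 of 65. Of the 13 and 29 cells with NPY, 11 and 20 had the parvalbumin gene pvalb7, against 16 of 62 and 9 of 48, and 12 and 24 had tlx2, against 26 of 62 and 23 of 48. The opposite order was seen for meis1b, found in 7 of 13 and 13 of 29 cells with NPY, against 49 of 62 and 39 of 48 without it. Cells with ccka had cbln4 in 4 of 13 and 9 of 24, against 3 of 62 and 2 of 53 without ccka. The peptide gene npffl, at 9.07 and 828 CPM, came from 2.67% and 2.60% of the cells, so that its level in library 2 rested on a few of them.

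**Figure D5:**
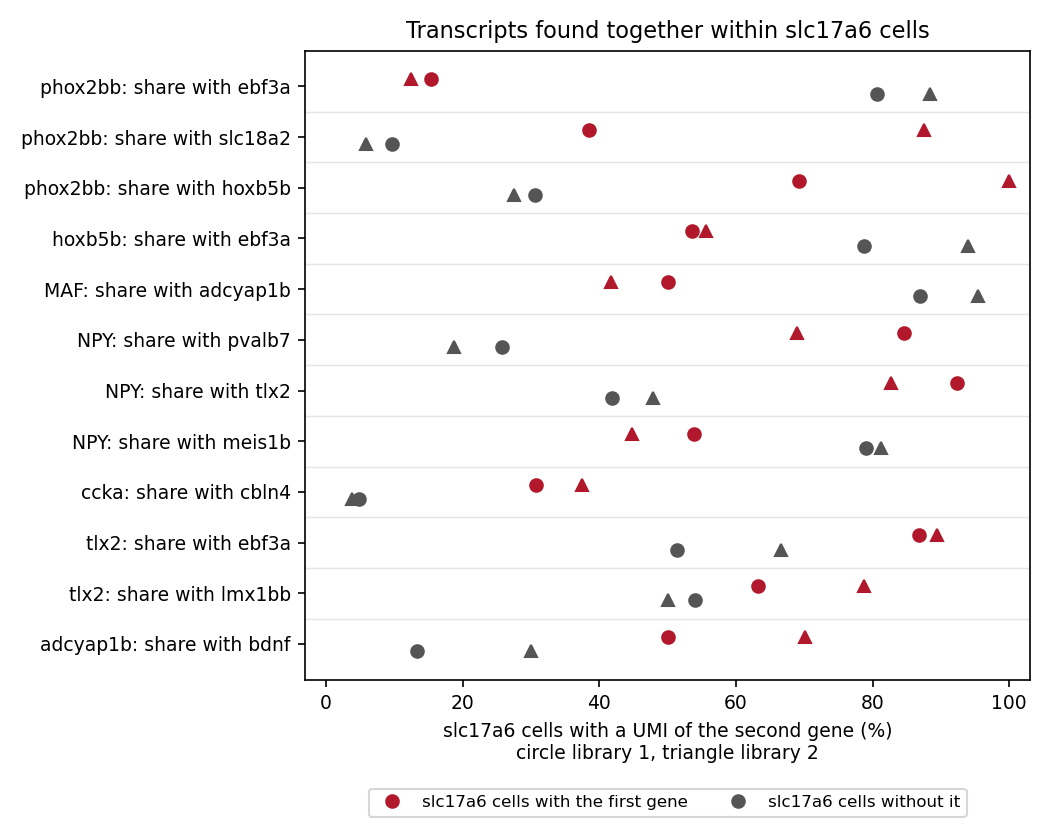
Share of slc17a6 cells with a UMI of the second gene (horizontal axis, percent), among cells with the first gene of each pair (red) and among cells without it (grey), in library 1 (circles) and library 2 (triangles), where MAF is ENSTRUG00000011245. The share with ebf3a is 15.4% and 12.5% in cells with phox2bb, against 80.6% and 88.4% in cells without it.

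Markers of other cells were low in slc17a6 cells relative to the rest of the cord. All 13 tested oligodendrocyte genes and all 10 tested astrocyte or radial glia genes were lower than in barcodes lacking the transcripts, with median log2 fold changes of -2.82 and -3.0, as were 2 of 3 microglia genes. The summed level of the 16 oligodendrocyte genes was 11680 and 13110 CPM in slc17a6 cells, 7069 and 3375 CPM in gad1b cells and 70100 and 64690 CPM in barcodes lacking the transcripts, and mbpb and olig1 were at 0 in slc17a6 cells. The 20 astrocyte or radial glia genes summed to 1927 and 1453 CPM, 2148 and 1496 CPM, and 12800 and 12520 CPM in the same order of groups, with 7 genes at 0 in slc17a6 cells. The cycling genes mki67 and mad2l1, the endothelial genes kdr and kdrl and the microglial gene csf1ra also had no UMI.

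Against gad1b cells, 3 oligodendrocyte genes (mag, gjb1a and hapln2) and 1 astrocyte gene (fabp7a) were called higher. Without neurons of more than 1% oligodendrocyte UMIs, a choice made after seeing the data, the log2 fold changes were 0.06 for mag, -0.13 for gjb1a, -0.38 for hapln2 and 0.48 for fabp7a (adjusted p from 0.639 to 0.991). Under the same choice lmx1bb, bdnf, tlx2, NPY, grik3 and pax2b kept their calls, with log2 fold changes of 7.83 for NPY, -3.73 for grik3 and -4.58 for pax2b, and 139 genes were called higher and 103 lower.

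Immediate early genes, which dissociation can induce, summed to 6052 and 10310 CPM in slc17a6 cells and were higher in library 2 in every group. Among slc17a6 cells fosab stood at 3724 and 6118 CPM, egr1 at 868 and 1572 CPM and npas4a at 233.5 and 399 CPM, each higher in library 2. Of 14 tested, none was called between slc17a6 and gad1b cells by edgeR. There 3 had an unadjusted p under 0.05 and DESeq2 called 1. Against barcodes lacking the transcripts 5 were higher and 1 lower. Over all genes tested, 27.0% were higher and 28.8% lower in that comparison, and 1.87% and 1.47% against gad1b cells. The activity-dependent factor npas4a was among the 5 higher ones, at 20.7 and 22.6 CPM in barcodes lacking the transcripts (log2 fold change 3.36, SE 0.295, adjusted p = 4.04e-06). The part of dissociation in these levels was not tested.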

How the data were processed

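The 2 fugu libraries of a series of 6 (fugu, mudskipper and chicken, pooled animals) were analysed here. Per the labels and the study's methods, the authors made the deposited counts with Cell Ranger 7.2.0, which counted unique molecular identifiers (UMIs) per gene and barcode of 10x Genomics 3' libraries over all barcodes, before cell calling, against a T. rubripes genome, while the animals were labelled T. obscurus. Seurat 5.3.0 is named in the submitters' processing notes. The matrices held raw whole-number counts of 21383 features, of which 15198 had a symbol, and no cell type annotation was used. Counts were read by feature ID. Gene names shared by several features are given with their ID, and reads shared by near-identical copies may have been lost or split in counting.

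Barcodes over 3000 UMIs were kept (the authors also required over 90 and 80 genes, which removed no kept barcode here). No doublets were removed. Scrublet (scanpy 1.11.5) scores, marked for the share of doublets usual at this loading, served as an alternative. The cells and gene lists were chosen with earlier results of these data known. Groups were formed on the UMIs of slc17a6b, SLC17A6, gad1b and scrt2, and counts were summed per library and group. A gene was tested when 10% or more of the cells in 1 of the groups carried it. The sums of the 4 groups were fitted together (slc17a6 cells that carry scrt2 were added in a separate fit) in edgeR 4.0.16 (TMM scaling, quasi-likelihood test, R 4.3.3), with Benjamini-Hochberg adjustment over all genes tested other than these 4. The SE of a log2 fold change is its size divided by the square root of F. Named genes had a symbol, an adjusted p under 0.05, the same direction in both libraries and a UMI in at least 10% of cells of the higher group: the 12 highest and 8 lowest against barcodes lacking the transcripts, 12 and 12 against gad1b cells and 6 and 6 against scrt2 cells, with the called genes of each list. A floor of 3 counts over a group gives the bounds on folds where a group has no UMI, and where it has 1 to 3 UMIs the ratio of CPM is given with an exact 95% interval. These intervals cover counting error only.

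The library number pairs the sums by design, since all groups of a library come from the same pooled animals, and deviations from group means correlated at 0.0398 to 0.205 between groups of the same library. The other choices tried were DESeq2 1.42.0, RLE scaling, no filter, the 2 groups alone, the library as a block, other UMI minimums, thinning to 3000 UMIs, requiring a neuronal transcript, leaving out top doublet scores and leaving out each sum. Those chosen after the data were seen were allowing scrt2, leaving out neurons above 1% oligodendrocyte UMIs, leaving out the deepest scrt2 barcode, and the comparison with slc17a6 cells that carry scrt2. Some genes counted in the lists are not reported here by name. The scripts were tested on simulated data. Python 3.11.15, numpy 2.4.6, scipy 1.17.1, pandas 2.3.3 and matplotlib 3.10.9 were used.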

Additional observations from a re-analysis of the deposited data

How the results depend on the processing

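The mean share of slc17a6 cells among kept barcodes, 2.93%, was 6.12% with a minimum of 1 transporter UMI, 2.68% with 3, 2.55% among barcodes over 4500 UMIs, 2.82% with a neuronal transcript required, 6.18% with scrt2 allowed and 2.66% without neurons above 1% oligodendrocyte UMIs, the last 2 chosen after the data were seen (2.87% to 2.99% in single libraries). Against barcodes lacking the transcripts, 832 genes were lower with a minimum of 1 UMI, and 1501 to 1855 when each sum was left out. Against gad1b cells, 910 genes were higher and 698 lower with a minimum of 1 UMI, 38 and 36 without the low-count filter, 78 and 74 over 4500 UMIs, and 51 to 107 and 51 to 70 when each sum was left out. Of the 60 called genes of the lists and of the named rule in that comparison, adcyap1b and ebf3a left out, 37 lost their call without the filter, 20 of 59 over 4500 UMIs, 14 of 57 after thinning and 35 without at least 1 sum. Of 100 such genes against barcodes lacking the transcripts, 6 lost their call without at least 1 sum. With a minimum of 1 transporter UMI 16 of 91 lost it (adjusted p up to 0.7715), and over 4500 UMIs 4 of 99 did (adjusted p up to 0.111). Against scrt2 cells, 760 were higher and 435 lower without the filter, 386 and 349 over 4500 UMIs, and 651 to 851 and 530 to 768 when each sum was left out. Against slc17a6 cells with scrt2, DESeq2 called 39 higher and 17 lower, the replicate block 21 and 4, and leaving out each sum 0 to 9 and 0. With the replicate block in the other fits, 2293 genes were higher and 2517 lower than in barcodes lacking the transcripts, 210 and 148 than in gad1b cells and 1210 and 885 than in scrt2 cells, which moved no count by over 1.5 times. Where the main or the alternative value was called, the log2 fold changes that changed direction were lcp1 against barcodes lacking the transcripts (0.21, minimum of 1 UMI), sox2 and fabp7b against gad1b cells (1.52 and 2.30, minimum of 1 UMI), and gjb1a and hapln2 against gad1b cells (-0.13 and -0.38, without neurons above 1% oligodendrocyte UMIs). The causes were not tested. Among the 4606 values recomputed per gene, changes of sign between 2 uncalled values were not counted. With 2 libraries of 75 and 77 cells, genes of few UMIs were seldom testable.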

Other observations

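Barcodes with at least 2 UMIs of slc17a6b and SLC17A6 and at least 1 UMI of gad1b, the GABA synthesis enzyme, numbered 4 of 162 in library 1 and 6 of 168 in library 2 and were in none of the groups compared. A further 89 and 107 kept barcodes had exactly 1 UMI of the transporter pair.

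The synapse organizers of the cerebellin family and a receptor of BDNF were picked after their values were seen. The gene cbln1 stood at 510 and 239 CPM in slc17a6 cells against 23.1 and 24.3 CPM in gad1b cells (log2 fold change 3.99, adjusted p = 0.00072, edgeR), and cbln2b at 1006 and 678 CPM against 273 and 210 CPM (1.82, adjusted p = 0.00493). Both were higher in 2 of 2 libraries. For ntrk2b, the BDNF receptor, the levels were 88.4 and 85.0 CPM against 62.6 and 140 CPM (adjusted p = 0.841), with opposite order in the 2 libraries.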
